A study of Mus musculus with 6 samples.

Results

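The ADAM and MMP metalloproteinases and their TIMP inhibitors are represented here by 8 genes, *Adam8*, *Adam10*, *Adam15*, *Adam17*, *Adam19*, *Mmp9*, *Timp1* and *Timp2*, chosen by gene symbol from the 23366 symbols of the deposited count table. All 8 were in the table, and 7 passed the filter on low counts, which left 11716 genes for testing. *Timp1* did not pass it. RNA was sequenced from Treg cells (regulatory T cells, CD4+GFP+ by flow cytometry) of the liver (n = 3 libraries) and of the spleen (n = 3 libraries) at 12 days of age. Both groups came from mice of the Foxp3GFP knock-in genotype, in which a green reporter tags the cells that transcribe Foxp3, the master regulator of this lineage. The study's title concerns Treg cells that accumulate in the neonatal liver, and the comparison asks how these differ from splenic Treg cells of the same age. No label tells whether each library stands for its own animal or for pooled animals, so p-values measure only the spread among these 6 samples, part of which may be technical.

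ADAM proteins (a disintegrin and metalloproteinase) are zinc proteases anchored in the membrane, and several of them cut the outer parts of surface proteins loose, a reaction called shedding. In T cells ADAM10 and ADAM17 shed receptors, adhesion molecules and cytokine precursors. Matrix metalloproteinases are secreted or membrane-bound relatives that cut extracellular matrix, and TIMPs (tissue inhibitors of metalloproteinases) block the catalytic site of these enzymes. The balance of such proteases and inhibitors is known for its part in leukocyte migration through tissue and in matrix turnover in the liver.

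Reads assigned to genes numbered 8437055, 10887092 and 10951720 in liver 1, 2 and 3 and 1199410, 11408960 and 11358446 in spleen 1, 2 and 3, so that spleen 1 was by far the shallowest. Liver and spleen stand here for the Treg libraries of each tissue. Levels are given as CPM, the reads of a gene relative to all reads in genes of its library, scaled to a common total. Across genes, none of which is an independent replicate, Pearson's r of log2 CPM was 0.978 to 0.983 within liver and 0.942 to 0.985 within spleen. Between libraries of different tissues it was 0.911 to 0.959. *Foxp3* averaged 1264 ± 58.3 CPM in the liver and 1158 ± 57.6 CPM in the spleen (SD, n = 3 each), *Cd4* 661 ± 28.4 CPM in the liver and 649 ± 64.2 CPM in the spleen, and *Cd3e* 364 ± 21.6 CPM in the liver and 356 ± 12.2 CPM in the spleen. These defining genes of the sorted cells were abundant in both tissues. Of 8 Treg and T cell genes listed, 5 did not pass edgeR's quasi-likelihood test at an adjusted p of 0.05. *Ctla4* (732 ± 34.0 CPM in liver libraries, 399 ± 86.1 CPM in the spleen libraries) and *Ikzf2* (821 ± 104 CPM in liver libraries, 641 ± 22.9 CPM in the spleen libraries) were higher in liver. *Il2ra* (407 ± 19.1 CPM in liver libraries, 619 ± 32.4 CPM in the spleen libraries) was lower. By this test 9.28% of all tested genes were higher in liver and 6.9% lower. Libraries are numbered within a tissue in accession order, and those with the same number held the same sex-linked transcripts: over 10 CPM of *Xist* alone in liver 1 and spleen 1, of *Ddx3y* alone in liver 2 and spleen 2, and of both in liver 3 and spleen 3. The labels do not give whether such libraries share animals or pools.

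*Adam8* was the member whose transcript differed most between the tissues. The 250 bases before its annotated start are shown with those of *Adam10* and *Adam17*, the main sheddases of T cells, whose transcripts did not pass the test. They come from RefSeq on GRCm38.p6, at chr7:139992563-139992812 on the minus strand for *Adam8*, chr9:70678732-70678981 on the plus strand for *Adam10* and chr12:21373633-21373882 on the minus strand for *Adam17*. RefSeq's table held 7 of the 8 members, all but *Mmp9*. Capitals mark GC boxes (GGGCGG on either strand) and, in *Adam17*, an Ets motif (CCGGAAG on either strand).
Adam8: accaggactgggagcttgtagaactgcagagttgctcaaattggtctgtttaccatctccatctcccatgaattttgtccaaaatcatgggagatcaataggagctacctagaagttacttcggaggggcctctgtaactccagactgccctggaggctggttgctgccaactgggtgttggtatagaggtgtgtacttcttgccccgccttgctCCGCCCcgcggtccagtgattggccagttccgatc
Adam10: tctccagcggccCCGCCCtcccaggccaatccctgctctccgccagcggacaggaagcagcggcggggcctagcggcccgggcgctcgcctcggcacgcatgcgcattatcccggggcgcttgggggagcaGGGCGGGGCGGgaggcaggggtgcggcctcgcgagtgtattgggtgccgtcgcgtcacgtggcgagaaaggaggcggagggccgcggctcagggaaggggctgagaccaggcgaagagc
Adam17: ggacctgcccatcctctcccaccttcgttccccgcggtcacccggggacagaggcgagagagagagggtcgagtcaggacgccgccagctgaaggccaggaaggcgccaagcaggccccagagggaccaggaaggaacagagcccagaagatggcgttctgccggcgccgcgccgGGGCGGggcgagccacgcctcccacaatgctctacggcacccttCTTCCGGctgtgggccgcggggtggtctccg
The *Adam8* window held 1 GC box, starting 35 bases before the start site. The *Adam10* window held 3, starting 238, 119 and 114 bases before it, of which the last 2 overlap. The *Adam17* window held 1 at 75 bases and the Ets motif at 31 bases. Of 32851 windows of this length in the table, 32.7% held a GC box and 6.91% the Ets motif. Searches on both strands for the AP-1 motif (TGANTCA, in 6.75% of all windows), the Runx motif (TGTGGTT, in 4.4%) and the NF-kB motif (in 3.9%) gave no match in these windows. GC content was 52.8% before *Adam8*, 74.0% before *Adam10* and 70.4% before *Adam17*, against a median of 52.4% over all windows.

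*Adam8* and *Mmp9* were higher in liver Treg libraries, and no member was lower. *Adam8*, an ADAM protease of leukocytes, was 4.72-fold higher, and *Mmp9*, the gelatinase that cuts type IV collagen of basement membranes, was 2.43-fold higher. The 2 called members of 7 tested stand beside 9.28% of all tested genes that were higher in liver and 6.9% that were lower, 16.2% in either direction, by edgeR's quasi-likelihood test at an adjusted p under 0.05. The members were chosen with earlier results of these data known, so no excess over these shares can be read from the count. Since the RNA is from bulk sorts, a larger share of cells that hold a transcript and more transcript per cell cannot be told apart.

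*Adam8* was at 84.0, 62.8 and 65.5 CPM in liver 1, 2 and 3, against 25.8, 13.6 and 13.3 CPM in spleen 1, 2 and 3. Every liver library was above every spleen library, and spleen 1 was the highest of its group. The read counts were 699, 685 and 708 in liver and 30, 159 and 156 in spleen. The 30 reads of spleen 1 give an exact 95% Poisson interval of 17.4 to 36.8 CPM, which covers counting error only and lies above the other 2 spleen libraries. The log2 fold change, liver minus spleen, was 2.24 ± 0.20 (SE) with an edgeR adjusted p of 4.50e-07. This ranked *Adam8* 55th by p among all tested genes, and without spleen 1 the log2 fold change was 2.39 (edgeR adjusted p = 1.66e-07). Within each pair of libraries that held the same sex-linked transcripts, the liver library had the higher value, as it also did for *Mmp9*. For both genes this follows from the lack of overlap between the tissues and adds nothing to it.

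*Mmp9* was at 33.5, 25.1 and 26.8 CPM in liver 1, 2 and 3, against 8.60, 9.59 and 14.8 CPM in spleen 1, 2 and 3. The groups did not overlap, and spleen 3 was the nearest to the liver libraries. In spleen 1 the value rests on 10 reads, with an exact 95% Poisson interval of 4.12 to 15.8 CPM, so this library does not resolve differences within spleen. The log2 fold change was 1.28 ± 0.22 (SE, edgeR adjusted p = 0.000474). It was 1.602 without spleen 3 and 1.11 without spleen 2, and the call held in both cases (edgeR adjusted p = 0.000134 without spleen 3 and 0.00676 without spleen 2).

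**Figure D1:**
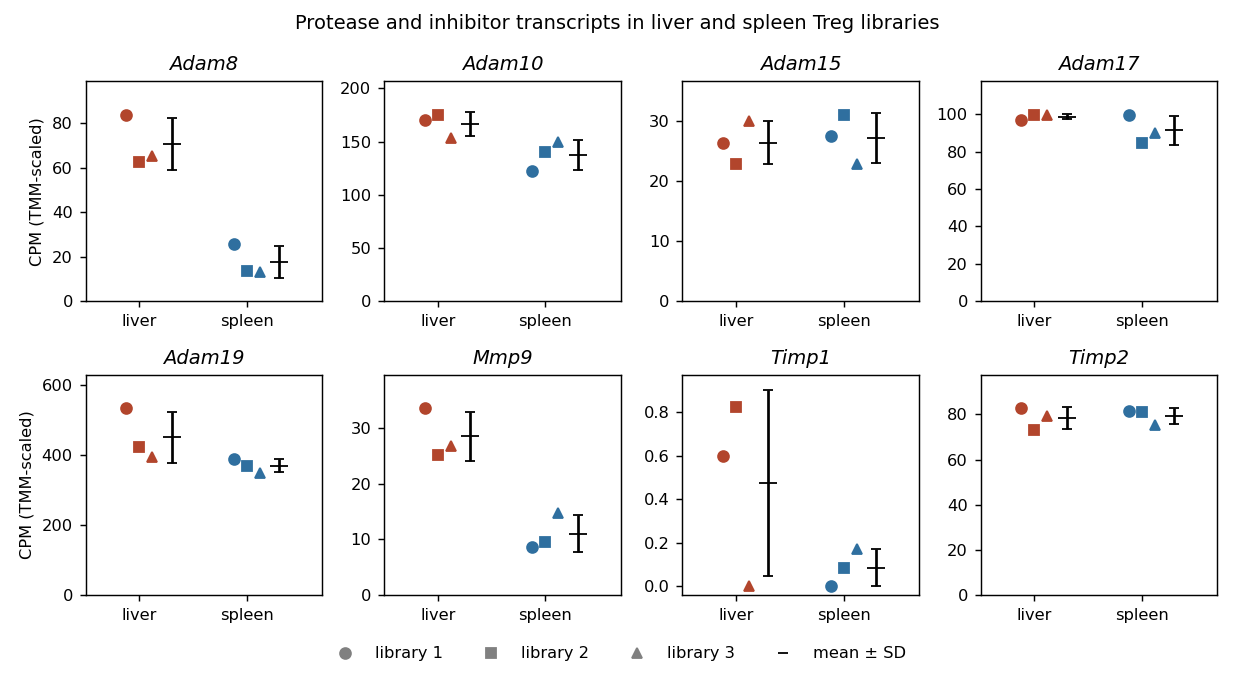
Each panel plots the TMM-scaled CPM of 1 gene on a linear axis in the 3 liver and 3 spleen libraries (markers by library number), with the mean and SD beside them. The liver values of Adam8 (62.8 to 84.0 CPM) and Mmp9 (25.1 to 33.5 CPM) lie above all spleen values, while those of Adam15, Adam17 and Timp2 overlap with spleen.

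*Adam10* and *Adam19* had small differences that did not pass the test. *Adam10*, the sheddase that opens Notch receptors for signalling, was at 171, 175 and 154 CPM in the liver and 122, 140 and 150 CPM in spleen. The libraries did not overlap, but the lowest liver value, of liver 3, and the highest spleen value, of spleen 3, were close. The log2 fold change was 0.25 ± 0.10 (SE, edgeR adjusted p = 0.0968). *Adam19*, also called meltrin beta, was at 533, 423 and 395 CPM in the liver and 388, 369 and 350 CPM in spleen, again without overlap, and liver 1 stood above the rest. Here too the lowest liver value, of liver 3, and the highest spleen value, of the shallow spleen 1, were close. The exact 95% Poisson interval of spleen 1 was 353 to 425 CPM, which includes the liver 3 value. The *Adam19* log2 fold change was 0.29 ± 0.11 (SE, edgeR adjusted p = 0.0905). Without liver 3 both genes passed the threshold, *Adam10* at 0.30 (edgeR adjusted p = 0.0441) and *Adam19* at 0.38 (edgeR adjusted p = 0.0332), so that 4 members were called. Without liver 1 the *Adam19* difference was 0.15 (edgeR adjusted p = 0.441). With *Adam8* and *Mmp9*, these were the 4 of 7 tested members whose liver libraries all lay above the spleen libraries, where 17.7% of all tested genes did and 15.2% had all liver libraries below, 32.9% in either direction. The limit set by the choice of members holds for this count too.

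*Adam17*, *Adam15* and *Timp2* had overlapping libraries and small estimated differences. *Adam17*, the TNF-converting enzyme, was at 96.9, 99.5 and 99.5 CPM in the liver and 99.7, 84.6 and 89.9 CPM in spleen. Its log2 fold change was 0.13 ± 0.10 (SE, edgeR adjusted p = 0.444), and the highest of all 6 values was that of spleen 1. That value rests on 116 reads, with an exact 95% Poisson interval of 82.4 to 120 CPM. The other spleen libraries lay below every liver library, so the overlap comes from spleen 1 alone. Without spleen 1 the *Adam17* log2 fold change was 0.18 and did not pass (edgeR adjusted p = 0.234). *Adam15*, a membrane-anchored ADAM with an integrin-binding motif in the human protein, was at 26.3, 22.8 and 30.0 CPM in the liver and 27.5, 31.0 and 22.8 CPM in spleen, a log2 fold change of -0.03 ± 0.18 (SE, edgeR adjusted p = 0.930). *Adam15* had 32 reads in spleen 1 and the widest SE of these 3 genes, which was 0.18 with spleen 1 and 0.18 without it. *Timp2*, which inhibits MMPs and also takes part in activating pro-MMP2 on the cell surface, was at 82.6, 73.3 and 79.3 CPM in the liver and 81.7, 81.1 and 75.1 CPM in spleen. Its log2 fold change was -0.01 ± 0.11 (SE, edgeR adjusted p = 0.971), the smallest in size among the tested members. For scale, the median size of the log2 fold change over all tested genes was 0.23, and their median change was -0.01.

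*Timp1*, the inhibitor best known for binding MMP9, was close to absent from the counts. It had 5, 9 and 0 reads in liver 1, 2 and 3, and 0, 1 and 2 reads in spleen 1, 2 and 3. In CPM this was 0.601, 0.824 and 0 in liver and 0, 0.0856 and 0.171 in spleen, and the groups overlapped because liver 3 had no read. A count of 0 allows up to 0.278 CPM in liver 3 and up to 2.58 CPM in the shallow spleen 1, taking 3 reads as the limit. Summed over each tissue, 14 reads in liver and 3 in spleen gave a ratio of 3.81 with an exact 95% interval of 1.06 to 20.7, which covers counting error only and not the spread between libraries. *Timp1* is X-linked, and its liver reads were 5 in liver 1, which held *Xist* alone, 9 in liver 2, which held *Ddx3y* alone, and 0 in liver 3, which held both.

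Levels were also divided by the length of all exons of a gene in GENCODE M21. *Adam19*, *Adam10*, *Timp2* and *Timp1* then held the same rank in both tissues, while *Adam8*, *Adam15*, *Adam17* and *Mmp9* did not. *Adam19* was the highest, at 63.3 ± 10.3 CPM per kilobase in liver and 51.9 ± 2.65 in spleen, followed by *Adam10* at 33.9 ± 2.30 in liver and 28.0 ± 2.87 in spleen and *Timp2* at 20.1 ± 1.22 in liver and 20.4 ± 0.93 in spleen (SD, n = 3 each). These 3 genes did not overlap with each other in either tissue. *Adam8* came next in liver, at 15.3 ± 2.49 CPM per kilobase, where its libraries overlapped with those of *Adam17* (13.8 ± 0.20). In spleen *Adam8* was sixth, at 3.79 ± 1.54, and overlapped with *Adam15* (4.41 ± 0.67) above it and with *Mmp9* (3.10 ± 0.94) below it. In liver *Mmp9* was at 8.05 ± 1.26, above *Adam15* at 4.29 ± 0.58 without overlap. *Timp1* was the lowest in both tissues. The exon length is that of a later build than the one used for the counts, and it includes exons that these cells may not use.

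**Figure D2:**
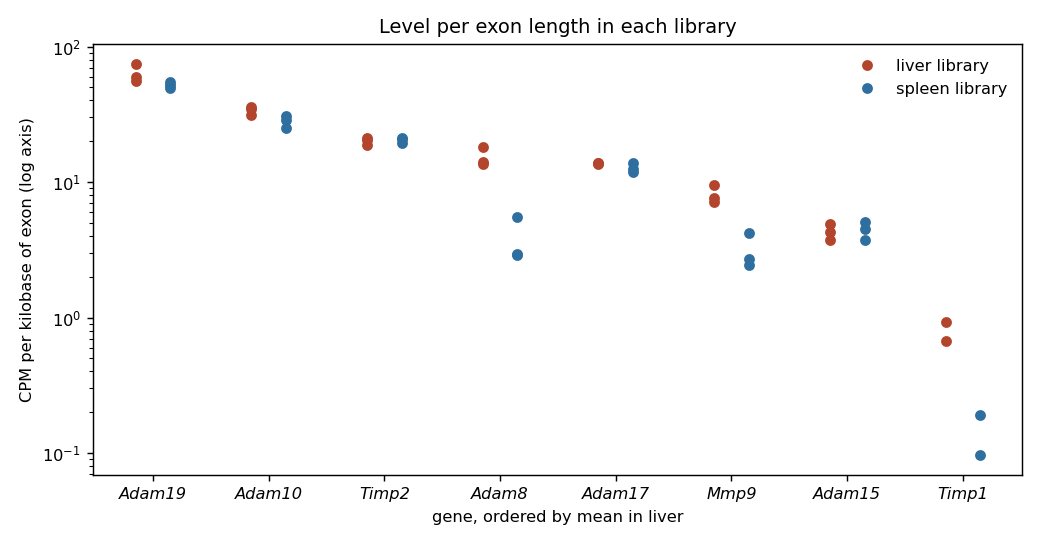
CPM per kilobase of exon (log axis) of each gene in each library, genes ordered by their mean in liver; libraries with no Timp1 read are not drawn. Adam8 lies beside Adam17 in liver and beside Adam15 and Mmp9 in spleen, while the places of Adam19, Adam10 and Timp2 are the same in both tissues.

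Ratios of reads within a library do not depend on scaling between libraries. For each read of *Adam10* there were 0.492, 0.358 and 0.426 reads of *Adam8* in liver, against 0.211, 0.0972 and 0.0888 in spleen. For each read of *Timp2* there were 0.406, 0.343 and 0.338 reads of *Mmp9* in liver, against 0.105, 0.118 and 0.197 in spleen. Both ratios were higher in every liver library than in any spleen library. *Adam17* reads per *Adam10* read were 0.568, 0.567 and 0.646 in liver, against 0.817, 0.604 and 0.5997 in spleen, which overlap. These are ratios of reads, not per length, and the differences between them were not tested.

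Some members share exon bases with other genes in GENCODE M21. *Adam17* shares 311 exon bases with *Iah1* and *Adam15* 1263 with *4731419I09Rik*, both on the opposite strand. *Adam19* shares 587 with *Gm16033* and 480 with *Gm16034*, and *Adam8* 46 with *Gm16201*, all on the opposite strand. *Timp1* lies inside *Syn1*, on the other strand, with no shared exon base. Since no strand setting is given in the sources used here, reads of such pairs cannot be told apart. *Mmp9* and *Adam10* overlap no other gene in that annotation.

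The 5 tested genes whose log2 CPM followed *Adam8* most closely over the 6 libraries were *Fam107b*, *Hip1r*, *Ckap5*, *Abcb1a* and *Ctla4*, each with a Pearson's r of at least 0.996. This is a description of 6 libraries that share 2 tissues and 1 shallow library. *Ckap5*, a microtubule-binding protein of the spindle, was at 214 ± 13.7 CPM in the liver and 126 ± 19.1 CPM in the spleen, and *Abcb1a*, an efflux transporter, at 30.0 ± 3.88 CPM in the liver and 12.8 ± 3.04 CPM in the spleen (SD, n = 3 each).

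The other genes of these families were mostly at low levels. Of 29 other ADAM genes 13 had no read in any library, 23 stayed under 1 CPM in every library and 5 were tested, none of which passed the test (median log2 fold change 0.40). *Adam9*, which is not among the genes the naming rule picks, was the highest of them, at 15.4 ± 2.90 CPM in the liver and 9.72 ± 5.46 CPM in the spleen (log2 fold change 0.43 ± 0.27, edgeR adjusted p = 0.328). Of 22 other MMP genes 5 were tested and 1 was lower in liver: *Mmp14*, a membrane-anchored MMP that activates pro-MMP2 together with TIMP2, at 18.6, 16.4 and 16.0 CPM in the liver and 27.5, 24.99 and 23.7 CPM in spleen. Its libraries did not overlap between the tissues, and the log2 fold change was -0.55 ± 0.18 (SE, edgeR adjusted p = 0.0439). The median of the 5 tested genes was -0.40. By the same test 6.9% of all tested genes were lower in liver and 9.28% higher. The count of other MMP genes called lower was 0 without liver 1, liver 2, liver 3, spleen 2 or spleen 3, and 2 without spleen 1. *Mmp2* itself had 0 reads in every liver library and 0, 0 and 2 reads in spleen.

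Of 19 ADAMTS genes, secreted relatives of the ADAMs, 4 were tested, with a median log2 fold change of -0.14, and 1 passed the test. Among all tested genes 16.2% passed in either direction. *Adamts14*, a procollagen peptidase, was higher in liver, with 68, 46 and 48 reads against 0, 6 and 8 reads in the spleen libraries (log2 fold change 3.29 ± 0.56, edgeR adjusted p = 0.000439), and its liver mean of 5.61 CPM was low. *Adamts10* (273 ± 5.30 CPM in the liver, 305 ± 21.6 CPM in the spleen) and *Adamts6* (128 ± 19.4 CPM in the liver, 139 ± 2.64 CPM in the spleen) were far more abundant and did not pass. Among the other inhibitors *Reck*, a membrane-anchored MMP inhibitor, was at 18.3 ± 2.19 CPM in the liver and 22.7 ± 5.14 CPM in the spleen and did not pass (log2 fold change -0.22 ± 0.20, edgeR adjusted p = 0.529). *Timp3*, the TIMP that inhibits ADAM10 and ADAM17, had 0 reads in liver and 1 read in spleen, and *Timp4* had none.

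The carriers and maturation factors of ADAM10 and ADAM17 formed a further list. Of 14 listed genes 9 were tested, 1 was higher in liver, 0 were lower and 8 did not pass, with a median log2 fold change of 0.18. Beside this, 9.28% of all tested genes were higher and 6.9% lower, 16.2% in either direction. From so few genes no difference from these shares can be read. The filter on low counts left out *Tspan33*, with 0, 7 and 1 reads in liver and 1, 73 and 75 reads in spleen. It also left out *Tspan15* (0 reads in every liver library; 1, 9 and 17 in spleen) and *Pcsk5* (0 reads in every liver library; 4, 0 and 3 in spleen). *Pcsk6* and *Tspan10* had no read. The gene that passed was *Tspan17*, a tetraspanin that carries ADAM10, at 9.59 ± 2.81 CPM in the liver and 4.31 ± 0.48 CPM in the spleen (log2 fold change 1.15 ± 0.33, edgeR adjusted p = 0.0208). Without liver 1, liver 3, spleen 2 or spleen 3 the count higher was 0, and without liver 1, liver 2, liver 3 or spleen 1 the count lower was 1. Among those that did not pass, and named after their values were seen, were *Furin*, the convertase that removes the prodomain of ADAM proteases, at 142 ± 8.03 CPM in the liver and 123 ± 9.77 CPM in the spleen, and *Rhbdf2*, which encodes the ADAM17 carrier iRhom2, at 28.5 ± 2.097 CPM in the liver and 25.2 ± 6.53 CPM in the spleen.

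Genes of surface proteins known to be shed by ADAM proteases went both ways. Of 26 tested, 8 were higher in liver, 5 were lower and 13 did not pass, with a median log2 fold change of -0.11. Over all tested genes 9.28% were higher and 6.9% lower. The list was chosen with earlier results of these data known. By the rule for named genes, *Tnfrsf1b*, the second TNF receptor, was at 670 ± 40.8 CPM in the liver and 398 ± 21.5 CPM in the spleen, and *Icam1*, an adhesion molecule, at 124 ± 14.7 CPM in the liver and 59.4 ± 14.5 CPM in the spleen. *Tnfsf11*, which encodes RANKL, was lower, at 12.9 ± 1.45 CPM in the liver and 31.7 ± 4.63 CPM in the spleen, and *Vcam1* had 1, 0 and 1 reads in liver and 15, 161 and 255 reads in spleen. *Tnf*, the classic substrate of ADAM17, named with the genes that follow after their values were seen, was lower, at 13.4 ± 0.98 CPM in the liver and 26.5 ± 4.42 CPM in the spleen (log2 fold change -1.04 ± 0.19, edgeR adjusted p = 0.000851). *Notch1*, cut by ADAM10, was at 405 ± 36.2 CPM in the liver and 425 ± 15.7 CPM in the spleen and did not pass (edgeR adjusted p = 0.688). *Lag3*, an inhibitory receptor shed by both sheddases, was higher, with a log2 fold change of 0.48 ± 0.14 (edgeR adjusted p = 0.0255). *Csf1r* of this list is also a macrophage marker. Of 9 macrophage and monocyte markers tested 7 were lower in liver and 0 higher. Among them *C1qa* had 1, 0 and 1 reads in liver and 6, 71 and 113 reads in spleen, near absent from liver as *Vcam1* was. The part of other cells in the *Vcam1* difference was not tested.

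All 5 listed binding partners of MMP9 and the TIMPs were tested, and 1 was higher in liver, 3 were lower and 1 did not pass, with a median log2 fold change of -0.94. Beside this, 9.28% of all tested genes were higher and 6.9% lower, and this list too was chosen with earlier results known. *Itgb1*, the integrin beta 1 chain, was at 590 ± 11.9 CPM in the liver and 303 ± 22.8 CPM in the spleen (log2 fold change 0.96 ± 0.10, edgeR adjusted p = 1.65e-06). *Lcn2*, whose protein forms a complex with MMP9 in human neutrophils, was lower, at 19.2 ± 2.35 CPM in the liver and 38.7 ± 10.3 CPM in the spleen (-0.94 ± 0.20, edgeR adjusted p = 0.00292). *Lrp1*, a receptor that clears MMP9 complexes, was at 10.5 ± 3.10 CPM in the liver and 26.2 ± 8.45 CPM in the spleen. *Cd63*, a TIMP1 receptor, was at 0.658 ± 0.267 CPM in the liver and 2.60 ± 0.77 CPM in the spleen. Granulocyte markers and macrophage markers were also lower in liver in sum. The part of such cells in the *Lcn2*, *Lrp1* and *Cd63* differences was not tested.

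**Figure D3:**
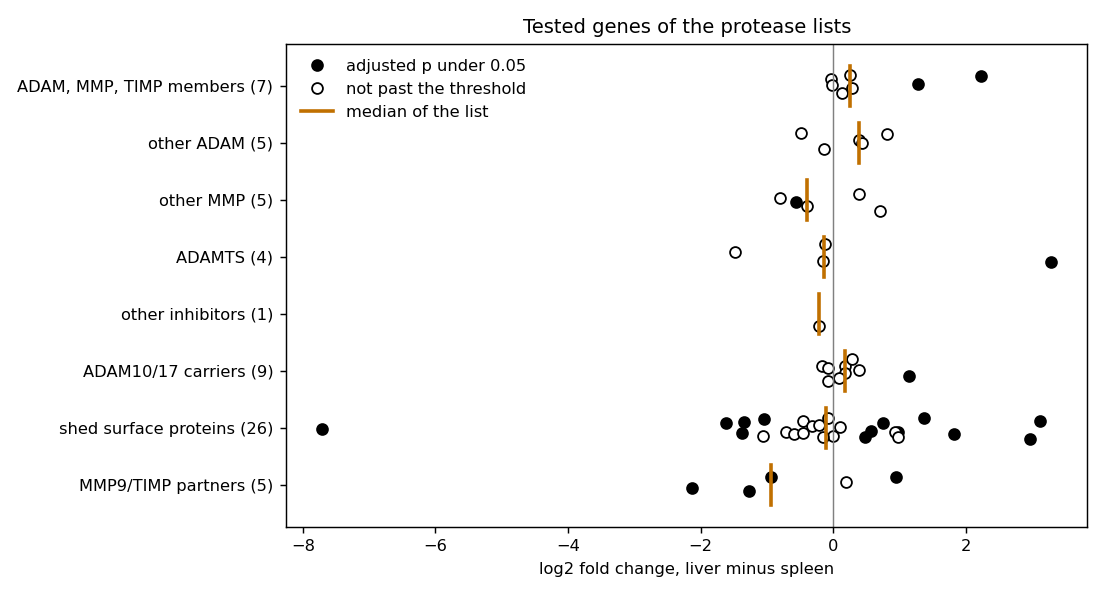
Log2 fold change, liver minus spleen, of each tested gene, by list, with the number tested in parentheses; filled points passed an adjusted p of 0.05 and the bar is the median of the list. Adam8 (2.24) and Mmp9 (1.28) are the filled points of the top row, and the shed surface proteins spread to both sides of 0, where the point at the far left is Vcam1, with 2 reads in all of liver.

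Transcripts of other cell types were present and differed between the tissues. Beside the counts of markers given from here on, 9.28% of all tested genes were higher in liver and 6.9% lower. *Adam8* and *Mmp9* are also expressed by granulocytes. The summed level of 12 granulocyte markers was lower in liver, at 266 to 297 CPM, against 478 to 806 CPM in spleen, and 9 of the 12 were lower in liver, 0 were higher and 3 did not pass. The most abundant were *Ngp* (69.4 ± 5.18 CPM in the liver, 174 ± 52.4 CPM in the spleen) and *Ltf* (55.1 ± 2.45 CPM in the liver, 117 ± 29.4 CPM in the spleen). The 3 that did not pass, named after their values were seen, were the receptor genes *Csf3r* (log2 fold change 0.72 ± 0.34, edgeR adjusted p = 0.175) and *Cxcr2* (1.08 ± 0.52, edgeR adjusted p = 0.189), and *Retnlg* (0.54 ± 0.42, edgeR adjusted p = 0.433). Their liver means were 11.7, 2.93 and 5.76 CPM and their spleen means 7.60, 1.69 and 5.03 CPM. The MMP genes of neutrophils, *Mmp8* (5.43 ± 1.33 CPM in the liver, 5.55 ± 4.47 CPM in the spleen) and *Mmp25* (1.82 ± 0.82 CPM in the liver, 0.826 ± 1.15 CPM in the spleen), did not pass (edgeR adjusted p = 0.666 for *Mmp8* and 0.553 for *Mmp25*).

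The other marker lists were lower in liver in sum, apart from those of NK and CD8 T cells and of hepatocytes. Macrophage and monocyte markers summed to 75.6 to 85.4 CPM in the liver, against 123 to 191 CPM in spleen, with 7 of 9 tested lower and 0 higher, and *Lyz2*, the most abundant, was at 59.6 ± 3.78 CPM in the liver and 93.8 ± 24.5 CPM in the spleen. B cell markers summed to 150 to 187 CPM in the liver, against 232 to 329 CPM in spleen, with 4 of 10 lower and 0 higher. Erythroid markers summed to 5.59 to 10.4 CPM in the liver, against 138 to 232 CPM in spleen, and all 6 tested were lower. Stromal, stellate and endothelial markers summed to 188 to 229 CPM in the liver, against 245 to 268 CPM in spleen, with 1 of 5 lower. Most of that sum was *Pecam1*. Platelet and megakaryocyte markers summed to 8.42 to 10.1 CPM in the liver, against 13.0 to 19.8 CPM in spleen, and neither of the 2 tested passed. Hepatocyte markers summed to 14.5 to 21.8 CPM in the liver, against 18.2 to 24.9 CPM in spleen, ranges that overlap, and of 3 tested 1 was higher and 1 lower. *Trf*, which encodes transferrin and was the most abundant, was lower, at 9.96 ± 0.87 CPM in the liver and 17.1 ± 3.11 CPM in the spleen. *Alb*, which encodes albumin, had 50, 24 and 79 reads in liver and 0 reads in all 3 spleen libraries, and was higher in liver.

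NK and CD8 T cell markers were higher in liver in sum, as *Adam8* and *Mmp9* were, at 45.3 to 55.0 CPM in the liver, against 24.9 to 33.6 CPM in spleen. Of 8 tested, 4 were higher and 1 was lower. *Prf1*, which encodes perforin, was at 14.3 ± 2.56 CPM in the liver and 4.08 ± 1.30 CPM in the spleen, while *Cd8b1*, a subunit of CD8, was at 7.16 ± 2.05 CPM in the liver and 7.65 ± 0.76 CPM in the spleen. The part of NK, CD8 T or other cells in the *Adam8* and *Mmp9* differences was not tested.

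**Figure D4:**
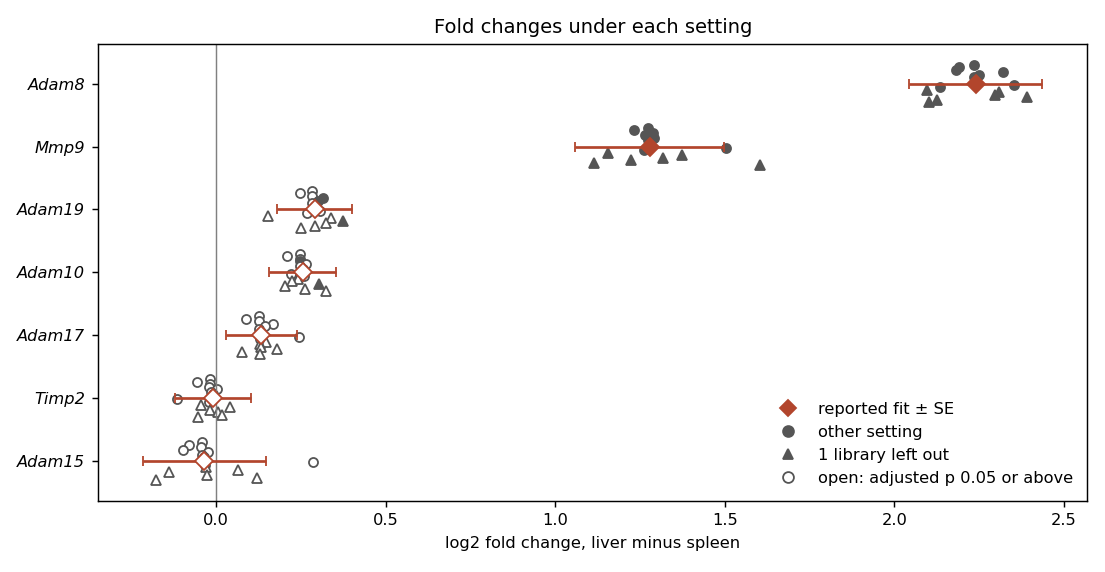
Log2 fold change, liver minus spleen, of the 7 tested members in the reported edgeR fit (diamond, with its SE), under each other setting (circles) and with 1 library left out (triangles); open symbols have an adjusted p of 0.05 or above. Adam8 stays between 2.097 and 2.39 and Mmp9 between 1.11 and 1.602, all filled, whereas Adam10 and Adam19 are open in the reported fit and filled under a few settings.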

How the data were processed

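The deposited table holds raw read counts per gene symbol, 1 column per library, for 3 liver and 3 spleen libraries. HISAT2 2.1, HTSeq 0.11 and the genome build mm9 are named in the submitters' processing notes. The gene annotation and the strand setting were not given in the sources used here. Summary rows that name no gene took 25.5% to 29.0% of the counts in the table and were left out. Genes were filtered with filterByExpr, scaled by TMM and tested for liver minus spleen with edgeR 4.0.16 (R 4.3.3) by the quasi-likelihood F test, with Benjamini-Hochberg adjustment over all tested genes and a threshold of 0.05. CPM are relative to the TMM-scaled counts in genes, and the SE is that implied by the F statistic. The 3-read limit was 2.58 CPM in spleen 1 and 0.256 to 0.360 CPM in the other libraries.

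The members and gene lists were chosen with earlier results of these data known. The rule for named genes takes all members, the 4 genes with the smallest p among those past the threshold in each list around them, the 2 most abundant genes of each marker list, *Foxp3*, *Cd4* and *Cd3e*, and the 5 genes most like the member with the smallest p. Some of these markers are given only within the sum of their list, and some listed genes are not reported here. *Ly6g*, *Hbb-bt* and *Ahsp* of the marker lists matched no row. Older symbols were matched through a RefSeq table of GRCm38.p6 (*Hbb-bs* is Beta-s in the count table). Other settings were DESeq2 size factors, upper-quartile scaling, the DESeq2 1.42.0 Wald test, limma-voom (limma 3.58.1) with quality weights, a robust fit, testing every gene with a read, requiring 5 CPM in 3 libraries, marker genes left out, libraries thinned to equal depth, a block on sex-linked transcripts and each library left out in turn.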

Additional observations from a re-analysis of the deposited data

How the results depend on the processing

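*Adam8* and *Mmp9* were higher in liver and past the threshold under all 16 alternatives, at log2 fold changes of 2.097 to 2.39 and 1.11 to 1.602. The members called higher were 4 with limma-voom and 2 to 4 with a library left out, and 0 were lower throughout. *Adam10* also passed with limma-voom (0.25), and *Adam19* with limma-voom (0.32) and without a filter on low counts (0.30). The sign of differences that did not pass turned for *Adam15* at equal depth (0.28; -0.18 to 0.12 with a library left out) and for *Timp2* without a filter (0.0019; -0.053 to 0.042 with a library left out). Over all genes, the reported fit gave 1087 higher and 808 lower, and limma-voom 1521 higher and 1243 lower. At equal depth 596 were higher and 419 lower. With a library left out 722 to 1245 were higher and 486 to 989 lower, the lowest counts being those without spleen 2. Of the lists, shed surface proteins had 4 higher and 3 lower at equal depth. Other MMP genes had 2 lower with limma-voom, 0 without a filter, 0 at equal depth and 0 to 2 with a library left out. ADAMTS genes had 0 higher with the 5 CPM filter and at equal depth, and 1 lower without a filter. ADAM10 and ADAM17 carriers had 0 higher at equal depth, 3 lower without a filter, and 0 to 1 higher and 0 to 1 lower with a library left out. Fewer genes were tested at equal depth (9155) and with the 5 CPM filter (9898). That filter left out *Adamts14*, which was at 4.21 and 4.44 CPM in liver 2 and 3 and lower in every spleen library. The causes of the other shifts were not tested. The labels pair no libraries. The block on sex-linked transcripts sets liver 1 beside spleen 1, liver 2 beside spleen 2 and liver 3 beside spleen 3 and so has the form of a paired fit. It changed no member's call, with *Adam8* at 2.13 and *Mmp9* at 1.26, and over all genes gave 1121 higher and 846 lower. Depth limits *Timp1* and the values of spleen 1.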
